A study of Mus musculus with 17 samples.

Results

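The D-type cyclins, the kinases they activate, the inhibitors of those kinases and the retinoblastoma protein were examined in mouse islets as 10 genes of the 78239 gene identifiers in the deposited count tables. They were the D-type cyclins *Ccnd1*, *Ccnd2* and *Ccnd3*, the kinases *Cdk4* and *Cdk6*, the inhibitors *Cdkn1b*, *Cdkn2a*, *Cdkn2b* and *Cdkn2c*, and *Rb1*. They were chosen by name and role, with results of these data already known, and none was dropped. RNA was sequenced from 17 islet samples of male mice in 6 groups. Of these, 12 samples came from littermates that carried either the wildtype *Pax4* gene or, on both alleles, a substitution in the endogenous gene (R200H in the mouse, the counterpart of human R192H). These wildtype and *Pax4* R192H mice (HH in the labels) were taken at 12 weeks on standard chow diet (SCD) or at 16 weeks after 4 weeks on high-fat diet (HFD), 3 samples in each of the 4 groups. The other table held 5 samples of mice at 20 weeks of age, all with floxed *Pax4* on both alleles, tamoxifen at 7 to 9 weeks and HFD for 8 weeks from 12 weeks. In the 3 *Pax4* βiKO samples (BiKO in the labels) the *Pdx1* promoter drove tamoxifen-inducible Cre, and the 2 controls had no Cre, so Cre and the loss of *Pax4* cannot be told apart. HFD mice of the first table were also older than SCD mice, so diet and age cannot be told apart either.

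A cell leaves the first gap phase when D-type cyclins bind and activate CDK4 or CDK6. The active kinases phosphorylate the retinoblastoma protein, which then releases E2F transcription factors, and these switch on genes of DNA replication and the later cyclins. The INK4 inhibitors, encoded by *Cdkn2a*, *Cdkn2b* and *Cdkn2c*, bind CDK4 and CDK6 directly, while the product of *Cdkn1b* mainly restrains the cyclin E and cyclin A kinases. In mouse β cells, *Cdk4* and *Ccnd2* are known for the growth of β cell mass after birth, and *Cdkn2a* for its accumulation with age.

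Each table was normalised on its own, and levels are given as CPM, counts scaled to the effective library size of each sample. Total counts per sample ran from 24268157 to 42679645 for the knock-in mice and from 28618835 to 31887537 for the floxed mice. Among the knock-in mice a pair of gene identifiers took 36.2% to 53.3% of a sample's counts. No sample of the 17 had a count for *Pax4*, so the genotype labels could not be checked on it. The 9 β cell markers, which include *Ins1*, *Ins2* and *Mafa*, were detected in every sample. A gene was called changed at an adjusted p under 0.05 by edgeR's quasi-likelihood test over all genes of its table, with an absolute log2 fold change above 0.5. The labels call the samples of a group biological replicates without saying whether each came from 1 mouse or from pooled islets, and every p-value rests on 2 or 3 samples a group. In whole islets, fewer cells of a type and less RNA per cell cannot be told apart.

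In build GRCm38 the cyclin genes lie at chr7:144929931-144939925 (*Ccnd1*), chr6:127125162-127152193 (*Ccnd2*) and chr17:47505051-47599691 (*Ccnd3*), and the kinase genes at chr10:127063534-127067920 (*Cdk4*) and chr5:3341485-3531008 (*Cdk6*). The inhibitor genes lie at chr6:134920401-134925513 (*Cdkn1b*), chr4:89274471-89294653 (*Cdkn2a*), chr4:89306299-89311039 (*Cdkn2b*) and chr4:109660876-109667189 (*Cdkn2c*), and *Rb1* at chr14:73183673-73325822. Of the 10 genes, 6 overlap another annotated gene, and whether reads were counted by strand was not stated.

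RefSeq promoter windows of build GRCm38.p6 matched 7 of the 10 genes. *Ccnd1*, *Ccnd2* and *Rb1* had no entry. The bases upstream of a start site are shown for *Cdkn2c*, the inhibitor whose change passed the test, and for *Cdk4*, the kinase it is set against below. Capitals mark a match on either strand to one of the motifs searched, an E2F motif written as TTTCGCGC, TTTGGCGC, TTTCCCGC or TTTGCCGC and the E-box CACGTG.
*Cdkn2c*, chr4:109665373-109665609, minus strand: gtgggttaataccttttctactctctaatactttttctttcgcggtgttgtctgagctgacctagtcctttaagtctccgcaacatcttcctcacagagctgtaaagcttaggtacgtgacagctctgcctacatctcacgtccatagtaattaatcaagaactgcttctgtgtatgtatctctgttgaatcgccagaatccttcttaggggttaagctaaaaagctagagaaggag
*Cdk4*, chr10:127063285-127063533, plus strand: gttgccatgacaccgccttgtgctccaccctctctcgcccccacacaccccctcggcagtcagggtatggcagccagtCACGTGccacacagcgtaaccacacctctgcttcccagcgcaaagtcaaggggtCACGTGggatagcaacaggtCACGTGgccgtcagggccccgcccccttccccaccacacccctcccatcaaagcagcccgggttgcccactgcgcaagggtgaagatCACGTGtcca
The 237 bases of *Cdkn2c* lie in an intron, upstream of its downstream start site, and hold no match, although the whole window of 300 bases at that start site holds 1 E-box outside the stretch shown. The 249 bases of *Cdk4* lie just outside the gene and hold 4 E-boxes, a hexamer that reads the same on both strands and that 7.15% of all 32851 promoter windows of 300 bases contain. An E2F motif was in 2.26% of the windows and in neither stretch shown. These are letter matches, and no binding was measured.

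*Ccnd2* and *Ccnd1* were the most abundant D-type cyclins and *Cdk4* the main kinase in every group. Scaled to exon length, wildtype islets on SCD held 45.6 ± 14.0 CPM per kb of *Ccnd2* (SD, n = 3), 29.8 ± 6.5 of *Ccnd1* and 25.5 ± 5.4 of *Cdk4*. *Ccnd1* and *Cdk4* lay within one another's SD. In R192H mice on HFD *Ccnd1* (41.6 ± 3.3) and *Ccnd2* (40.4 ± 8.0) could not be ranked on this scale. On the same scale *Cdkn1b* was at 11.5 ± 1.5. Below it came *Ccnd3* at 4.08 ± 0.11, *Rb1* at 3.60 ± 1.07, *Cdkn2b* at 3.07 ± 0.55 and *Cdkn2c* at 2.75 ± 0.29 CPM per kb, and the neighbouring means in this last run lay within the SD of at least one of each pair. *Cdk6* came last among the tested genes at 0.174 ± 0.049 CPM per kb. Its level per kb was between 0.137% and 0.995% of that of *Cdk4* in each of the 12 samples, and between 0.345% and 0.472% in the 5 samples of the other table.

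*Cdkn2a* was near the detection floor. Its counts ran from 0 to 16 per sample, and 9 of the 10 genes passed the filter on low counts, with *Cdkn2a* the exception. The R192H mice on HFD had 1, 7 and 16 counts, the wildtype mice on HFD 5, 8 and 4, and the βiKO mice 3, 14 and 3 against 2 and 4 in the controls. The 3-count floor was between 0.0724 and 0.126 CPM in the first table. Without the filter edgeR called no *Cdkn2a* difference, with wide standard errors of 1.04 to 1.68 on the log2 scale. The lowest adjusted p was 0.401, between diets in R192H mice (log2 fold change 2.04, SE 1.23). The count is for the whole gene, whose transcripts encode the unrelated inhibitors p16Ink4a and p19Arf, and these cannot be separated here. Its neighbour *Cdkn2b*, 11645 bases away on chromosome 4 and an inhibitor of the same kinases, was measurable in every sample, between 3.36 and 8.18 CPM. In all 5 comparisons between groups its ranges overlapped.

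**Figure D1:**
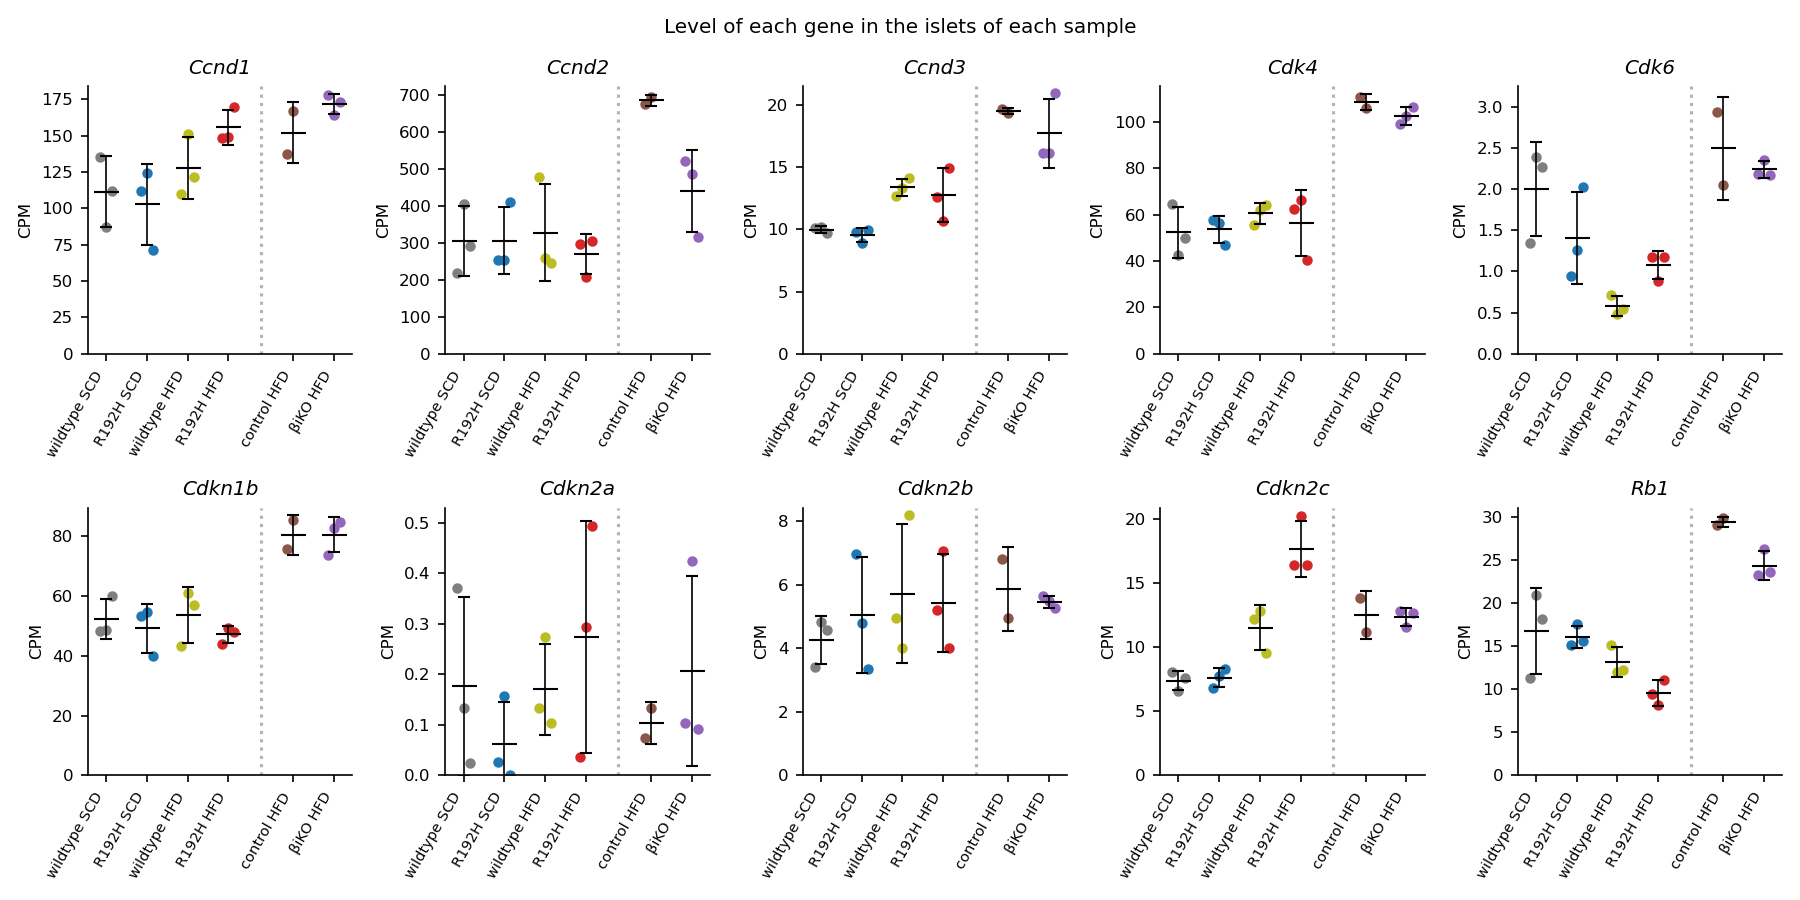
Level of each of the 10 genes, in CPM on a linear axis from 0, for every sample (points) with the group mean and SD (bars); the dotted line separates the 2 tables, which were normalised separately. *Cdkn2c* in the 3 R192H samples on HFD lies between 16.3 and 20.2 CPM, above the other 9 samples of its table, and *Cdk6* is lowest in wildtype mice on HFD.

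On SCD the 2 genotypes could not be told apart on any of these genes. None of the 9 tested genes was called by edgeR or DESeq2. Of all 19137 genes tested edgeR called 0%, and DESeq2 called 0.105% of the genes it tested. None of the 9 had an unadjusted p under 0.05, against 3.29% of all genes. The log2 differences between R192H and wildtype ran from -0.52 (*Cdk6*) to 0.24 (*Cdkn2b*), with 95% intervals that together reached from -1.30 to 0.93. The intervals of *Cdk4*, -0.37 to 0.44, and of *Cdkn1b*, -0.43 to 0.25, were among the narrower ones. No gene separated the 3 samples of one genotype from the 3 of the other, while 7.83% of all genes did.

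*Cdkn2c*, an INK4 inhibitor of CDK4 and CDK6, rose between SCD and HFD in R192H mice. It kept that call when any single sample was left out. With the mean log2 CPM of acinar cell markers as a covariate it was not called (adjusted p = 0.167). The level was 8.05, 6.54 and 7.56 CPM in wildtype mice on SCD and 6.84, 7.77 and 8.25 in R192H mice on SCD. On HFD it was 12.2, 12.8 and 9.51 CPM in wildtype mice and 16.4, 20.2 and 16.3 in R192H mice. The SCD groups overlapped, every HFD sample lay above every SCD sample, and every R192H sample on HFD lay above every wildtype sample on HFD. Between R192H mice on HFD and on SCD the log2 fold change was 1.21 (SE 0.16, 95% interval 0.87 to 1.56, edgeR adjusted p = 0.000488). Leaving out 1 of the 6 samples at a time gave log2 fold changes of 1.11 to 1.27, with adjusted p between 0.00174 and 0.00365.

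The other *Cdkn2c* differences did not pass the edgeR threshold. The log2 difference between HFD and SCD in wildtype mice was 0.64 (SE 0.16, adjusted p = 0.0963), and between genotypes on HFD it was 0.62 (SE 0.16, adjusted p = 0.0594). DESeq2 called both, with adjusted p of 0.0323 and 0.0193, and without the filter on low counts edgeR called the second (adjusted p = 0.0491). Other edgeR settings did not call the genotype difference on HFD. It was 0.55 with the acinar covariate (adjusted p = 0.713). Blocking by replicate gave an adjusted p of 0.122, and leaving out a sample gave 0.0589 to 0.247. For the diet difference in wildtype mice the same settings gave adjusted p of 0.151, 0.173 and 0.0836 to 0.305. The difference between the genotype effects on HFD and on SCD was 0.57 (SE 0.23, unadjusted p = 0.0238), and after adjustment by edgeR p was 0.351, so a larger effect of HFD in R192H mice was not established. The comparisons share groups: R192H mice on HFD enter both the diet and the genotype comparison.

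In the knockout table the *Cdkn2c* ranges of the 2 genotypes overlapped. The controls had 13.8 and 11.2 CPM and the βiKO mice 12.8, 11.6 and 12.7. The log2 difference had a 95% interval of -0.34 to 0.30.

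*Rb1* moved the opposite way in R192H mice. It encodes the retinoblastoma protein, the main target of the CDK4 and CDK6 kinases. R192H mice had 15.1, 17.5 and 15.6 CPM on SCD and 9.45, 8.14 and 11.1 on HFD, with no overlap. The log2 fold change was -0.75 (SE 0.21, edgeR adjusted p = 0.0251). This call was kept without R192H replicate 3 on HFD (adjusted p = 0.0383) and lost without any one of the other 5 samples, and it was also lost with the acinar covariate (adjusted p = 0.405). Over these 6 fits the log2 fold change ran from -0.87 to -0.64, and the highest adjusted p was 0.113. In wildtype mice *Rb1* stood at 11.3, 20.9 and 18.1 CPM on SCD and 15.2, 12.0 and 12.2 on HFD, and these ranges overlapped. Between genotypes on HFD the log2 difference was -0.46 (SE 0.21, adjusted p = 0.298), with every R192H sample below every wildtype sample.

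*Cdkn2c* and *Rb1* made 2 of the 9 tested genes called between HFD and SCD in R192H mice, a comparison in which 15.7% of all genes were called. DESeq2 called 3 of the 9 (17.2% of the genes it tested), *Ccnd1* being the third, and 4 had an unadjusted p under 0.05 (32.4%). By edgeR that is 1 gene higher (9.75% of all genes) and 1 lower (5.91%). In the same comparison 4 of the 9 genes separated the groups without overlap, against 41.8% of all genes, so these counts lay near those of genes in general. For HFD against SCD in wildtype mice edgeR called 0 (0.371% of all genes) and DESeq2 called 2 (2.55%). An unadjusted p under 0.05 was found for 3 (15.2%), and 3 of 9 did not overlap (17.9%). For R192H against wildtype on HFD edgeR called 0 (2.28%) and DESeq2 called 1 (5.28%), 3 had an unadjusted p under 0.05 (15.9%), and 3 of 9 did not overlap (22.9%). For the difference between the genotype effects edgeR called 0 (0.131%) and DESeq2 called 0 (1.54%), and 2 had an unadjusted p under 0.05 (11.2%).

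The log2 differences with an unadjusted p of 0.05 or more are given by range. Their intervals hold 0 by construction, because interval and p come from the same test. Between diets, the 6 such genes in wildtype mice ran from -0.35 (*Rb1*) to 0.42 (*Cdkn2b*), with 95% intervals that together reached from -0.79 to 1.10. The 5 in R192H mice ran from -0.37 (*Cdk6*) to 0.09 (*Cdkn2b*), with intervals from -1.18 to 0.78. Between genotypes on HFD, 6 genes ran from -0.28 (*Ccnd2*) to 0.29 (*Ccnd1*), with intervals from -0.91 to 0.73. For the difference between the genotype effects, 7 genes ran from -0.39 (*Rb1*) to 0.41 (*Ccnd1*), with intervals from -1.29 to 1.03.

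**Figure D2:**
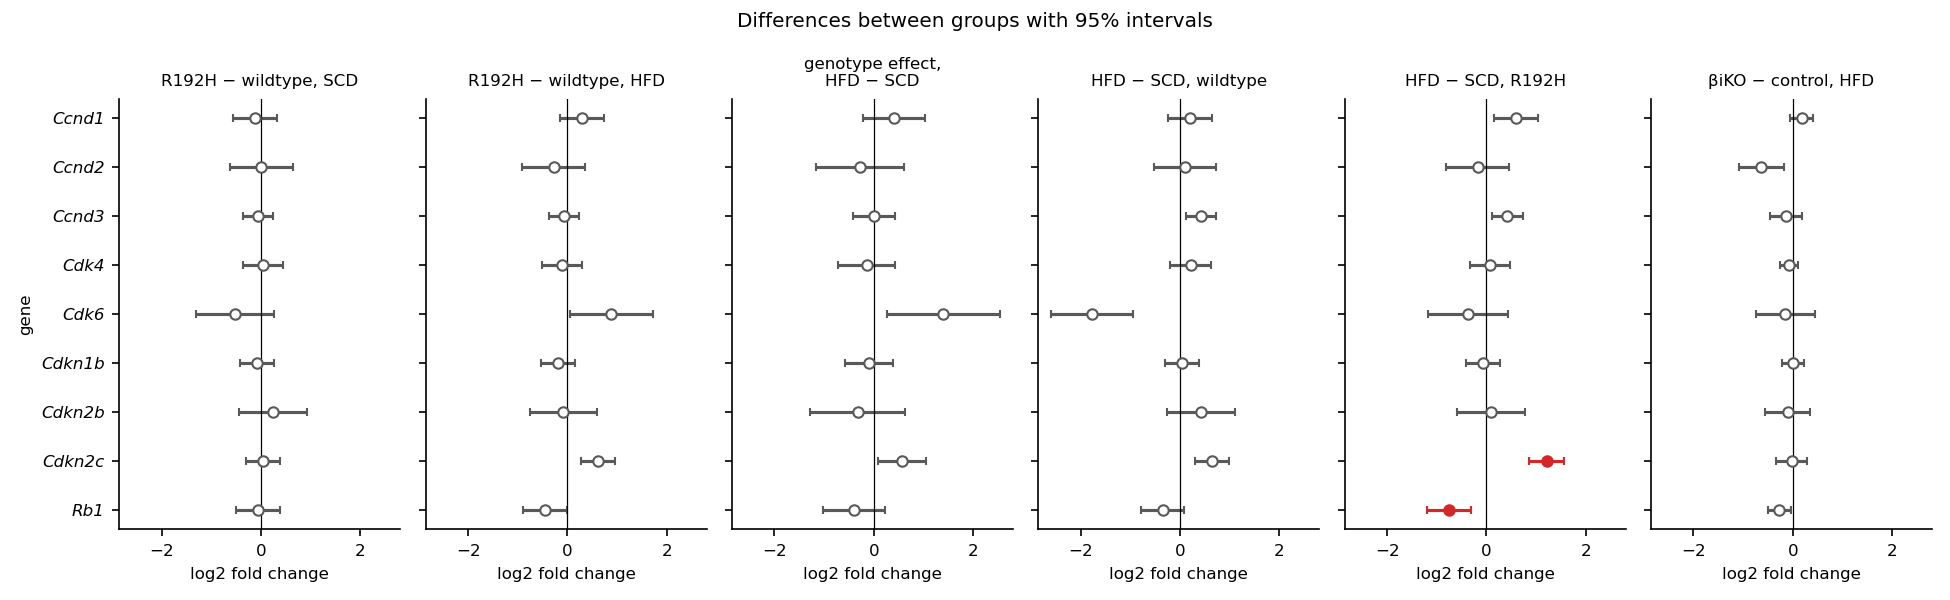
Log2 fold change (x axis) of the 9 tested genes in the 6 comparisons, with 95% intervals; filled red points passed the threshold. Only *Cdkn2c* (1.21) and *Rb1* (-0.75) did, both between HFD and SCD in R192H mice, and the *Cdk6* intervals are wide.

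Values of other cell types and of RNA composition moved with the HFD result in R192H mice. The 25 acinar cell markers, digestive enzyme genes for the most part, were all detected and summed to 43200 to 113600 CPM in R192H mice on HFD, 15360 to 21800 in R192H mice on SCD, 18700 to 29200 in wildtype mice on HFD and 15160 to 29920 in wildtype mice on SCD. The acinar covariate was not this sum but the mean log2 CPM of those markers that passed the filter on low counts. With this covariate the *Cdkn2c* log2 fold change was 1.13 and that of *Rb1* was -0.79, and neither was called by edgeR. Within R192H mice on HFD the acinar sum was 113600, 43200 and 44510 CPM in the samples with 16.4, 20.2 and 16.3 CPM of *Cdkn2c*. In the knockout table the acinar sum was 121700 and 27630 CPM in controls and 96160, 19280 and 25720 in βiKO mice. In the same order *Cdkn2c* was at 13.8 and 11.2 CPM in controls and 12.8, 11.6 and 12.7 in βiKO mice. The relation of acinar RNA to *Cdkn2c* within groups was not tested. The β cell markers summed to 99030 to 110100 CPM in R192H mice on HFD and 49990 to 52150 on SCD. The 6 duct cell markers summed to 123 to 134 CPM in R192H mice on HFD, above the 78.5 to 101 of R192H mice on SCD and every other sample of the table (up to 108), with *Sox9* and *Cftr* at 0 in 1 wildtype sample on SCD. The 4 alpha cell markers were lower in R192H mice on HFD (3867 to 5461 CPM) than on SCD (5634 to 7632). The sums of delta, endothelial, stromal, myeloid and lymphocyte markers overlapped between the diets in R192H mice. The pair of identifiers with most counts took 49.2% to 53.3% of a sample's counts in R192H mice on HFD and 37.6% to 46.3% on SCD, with TMM normalisation factors of at most 0.823 on HFD and at least 1.08 on SCD. With this pair left out, both genes were still called. The part of the β, duct and alpha cell levels in the result was not tested. Long genes also read lower in this comparison: the median log2 fold change fell from 0.30 over genes with up to 1500 bases of exon to -0.50 over genes above 8000. It was 0.09 in the class of *Cdkn2c* (2686 bases) and -0.08 in that of *Rb1* (4656 bases). With offsets for exon length, an alternative chosen after the data were seen, both calls were kept.

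The ratio of inhibitor to kinase RNA was, like *Cdkn2c*, highest in R192H mice on HFD. Within that group the order of its samples was not that of *Cdkn2c*. Per kb of exon, *Cdkn2c* stood at 20.1%, 23.2% and 31.0% of *Cdk4* in R192H mice on HFD. The corresponding values were 16.8%, 15.8% and 11.3% in wildtype mice on HFD, 9.09%, 10.5% and 13.4% in R192H mice on SCD and 9.55%, 11.7% and 11.6% in wildtype mice on SCD. The 3 R192H samples on HFD were thus the highest of the 12, and their ratio of 31.0% came with the lowest *Cdk4* level of the table, 40.3 CPM. In the knockout table the ratio was 9.53% and 8.07% in controls and 9.88%, 8.61% and 9.09% in βiKO mice. The ratios were not tested.

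**Figure D3:**
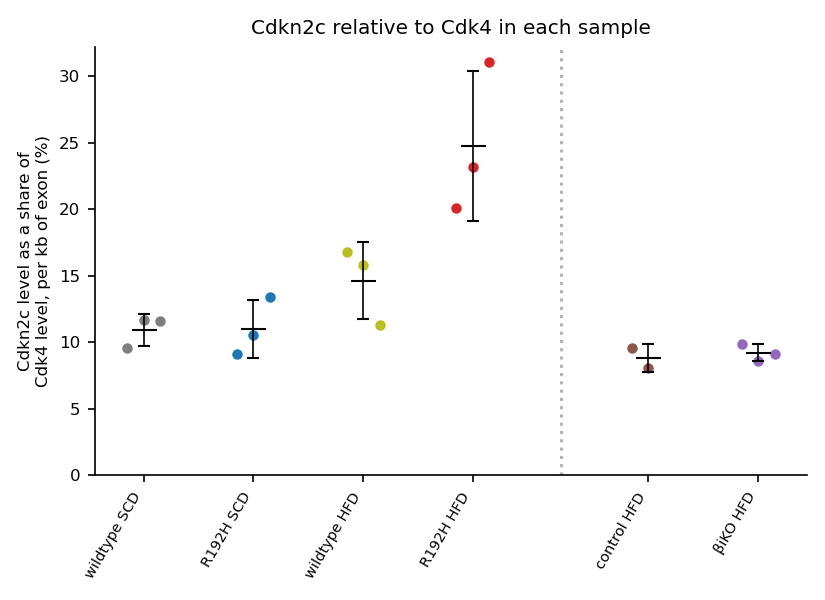
*Cdkn2c* level as a percentage of the *Cdk4* level, each per kb of exon, for every sample (points) with group mean and SD (bars); the dotted line separates the 2 tables. R192H mice on HFD lie between 20.1% and 31.0%, and all other mice at or below 16.8%.

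The D-type cyclins showed smaller differences. *Ccnd1* was at 112, 124 and 71.6 CPM in R192H mice on SCD and 148, 149 and 170 on HFD, with no overlap (log2 fold change 0.60, SE 0.21, edgeR adjusted p = 0.0619). DESeq2 gave an adjusted p of 0.0302 for this difference, and edgeR gave 0.0043 without the filter. Without R192H replicate 3 on SCD, the sample at 71.6 CPM, the log2 difference was 0.40 (adjusted p = 0.209), and without replicate 2 it was 0.79 and called (adjusted p = 0.0492). In wildtype mice *Ccnd1* was at 136, 86.8 and 112 CPM on SCD and 110, 151 and 122 on HFD, which overlapped.

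*Ccnd3*, the least abundant D-type cyclin, had a like difference between diets in both genotypes. The levels on SCD were 10.1, 10.2 and 9.68 CPM in wildtype mice and 9.76, 8.90 and 9.93 in R192H mice. On HFD they were 12.7, 13.3 and 14.1 in wildtype mice and 12.6, 10.7 and 14.96 in R192H mice. Every HFD sample lay above every SCD sample. The log2 fold change was 0.42 in each genotype (SE 0.14), and neither passed, with edgeR adjusted p of 0.183 in wildtype and 0.0553 in R192H mice. Without R192H replicate 2 on HFD the latter was called (0.54, adjusted p = 0.0399). *Ccnd3* overlaps *Bysl* on the opposite strand.

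*Ccnd2* varied more within groups than between them. It was at 219, 405 and 293 CPM in wildtype mice on SCD, 254, 254 and 412 in R192H mice on SCD, 480, 259 and 246 in wildtype mice on HFD, and 299, 209 and 305 in R192H mice on HFD. All 4 ranges overlapped. In 3 of the 4 groups the sample with most *Ccnd2* had least *Ccnd1*, and R192H mice on HFD were the exception. *Ccnd2* has 6711 bases of exon, and the trend of levels with gene length also differed between single samples. Measured as the median log2 deviation of genes above 8000 bases minus that of genes up to 1500 bases, it was -0.17, 0.57 and 0.24 in wildtype mice on SCD, 0.15, 0.18 and 0.59 in R192H mice on SCD, 0.39, -0.37 and -0.27 in wildtype mice on HFD, and -0.31, -0.69 and -0.44 in R192H mice on HFD. In each SCD group and in wildtype mice on HFD, the sample with most *Ccnd2* was also the one with the highest trend, which did not hold in R192H mice on HFD.

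**Figure D4:**
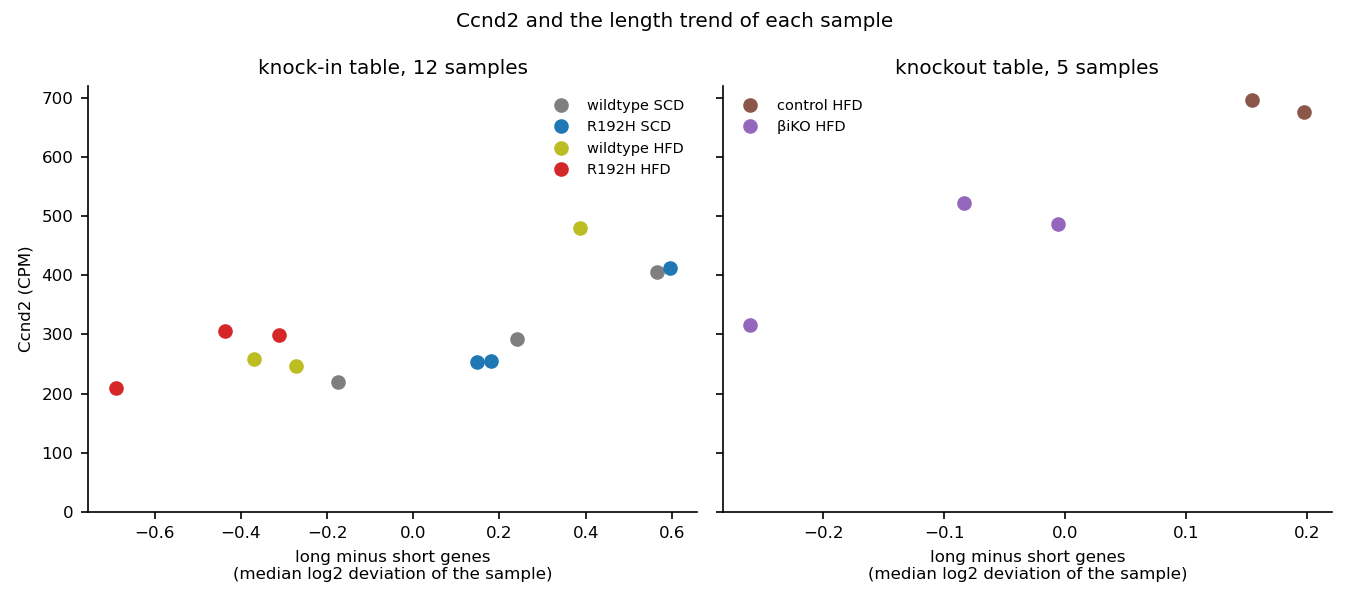
*Ccnd2* level in CPM (y axis, from 0) against the length trend of each sample (x axis, log2 scale, above 0 where long genes read higher than in the average sample of the table), for both tables. The 3 samples of the first table with 405 to 480 CPM have trends of 0.39 to 0.59, and the βiKO sample with 315 CPM has the lowest trend of its table, -0.26.

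In the knockout table *Ccnd2* had the largest difference of the 9 tested genes. The controls had 677 and 696 CPM and the βiKO mice 523, 488 and 315, with no overlap. The log2 difference was -0.64 (SE 0.20, 95% interval -1.09 to -0.18, unadjusted p = 0.0127), and edgeR's adjusted p was 0.282. Without the filter on low counts the adjusted p was 8.32e-06 at a log2 difference of -0.63, and DESeq2 gave 0.184. Without the third βiKO sample the log2 difference was -0.44 (adjusted p = 0.199). The length trend was 0.20 and 0.15 in controls and -0.08, -0.01 and -0.26 in βiKO mice, and with offsets for exon length the difference was -0.56 (adjusted p = 0.381). Marker sums that separated the 2 genotypes were those of duct (253 to 317 CPM in βiKO mice, 203 to 206 in controls), endothelial (324 to 378 and 307.6 to 307.8), stromal (292 to 405 and 275 to 287), alpha (13970 to 14190 and 10830 to 13920) and β cells (131700 to 137200 and 120700 to 131600). Their part in the βiKO differences was not tested.

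*Rb1* was also lower in all 3 βiKO samples, at 23.2, 26.2 and 23.5 CPM against 29.0 and 29.8, without passing the threshold (log2 difference -0.27, SE 0.10, edgeR adjusted p = 0.317). None of the 9 genes was called in this comparison by edgeR or DESeq2, and 2 had an unadjusted p under 0.05. Of all 20167 genes edgeR called 0.0893%, DESeq2 called 2.02% of those it tested, and 12.8% had an unadjusted p under 0.05. The 2 genes without overlap compare with 32.6% of all genes. The other 7 differences ran from -0.15 to 0.18 on the log2 scale, with 95% intervals inside -0.75 to 0.44. *Cdk4* was at 111 and 106 CPM in controls and 98.9, 103 and 106 in βiKO mice, and *Cdkn1b* at 75.9 and 85.3 against 73.9, 82.7 and 84.9.

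The composition of D-type cyclin RNA followed these levels. Per kb of exon, *Ccnd2* made up 69.3% and 66.4% in controls and 59.0%, 59.0% and 46.2% in βiKO mice, while *Ccnd1* made up 25.2% and 28.5% against 36.0%, 35.7% and 45.4%. Both shares separated the 2 groups, but shares of the same sum depend on each other. The *Ccnd1* level itself overlapped, at 137 and 167 CPM in controls and 164 to 178 in βiKO mice. Among the 12 samples of the first table *Ccnd2* made up 41.3% to 72.6% and *Ccnd1* 22.6% to 52.9%, and R192H mice on HFD had *Ccnd2* at 49.9%, 41.3% and 46.9%. *Ccnd3* stayed between 4.74% and 8.40% in all 17 samples. The shares were not tested, nor was the part of the length trend in them.

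**Figure D5:**
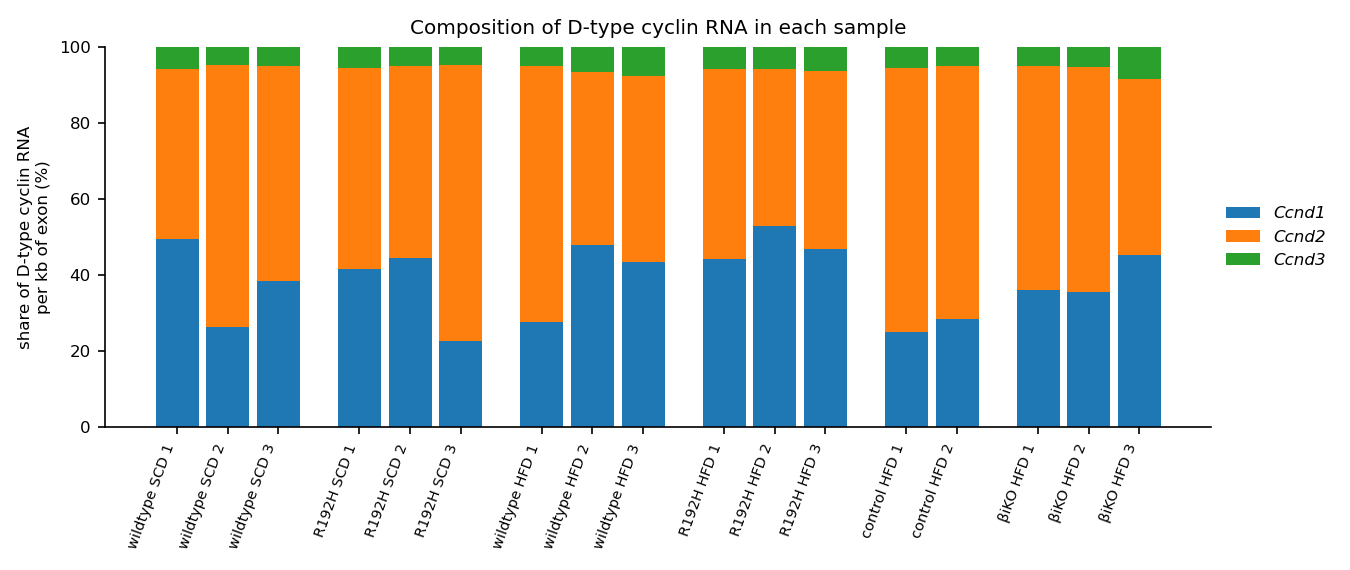
Share of *Ccnd1*, *Ccnd2* and *Ccnd3* in the summed D-type cyclin level per kb of exon (y axis, %), 1 bar for each sample. *Ccnd2* ranges from 41.3% to 72.6% in the first table and is lower in the 3 βiKO samples (46.2% to 59.0%) than in the 2 controls (66.4% and 69.3%).

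*Cdk6*, the second kinase of the D-type cyclins, was low throughout and lowest in wildtype mice on HFD. It was at 1.35, 2.39 and 2.27 CPM in wildtype mice on SCD and 0.720, 0.478 and 0.547 on HFD, the latter from 27, 14 and 21 counts. R192H mice had 0.941, 1.26 and 2.02 CPM on SCD and 1.18, 0.881 and 1.17 on HFD. The wildtype diets did not overlap, and neither did the genotypes on HFD, while the R192H diets overlapped. The log2 difference between HFD and SCD in wildtype mice was -1.78 (SE 0.38), with an edgeR adjusted p of 0.0645. The call depended on the processing, with adjusted p of 0.00548 by DESeq2, 0.0192 without the filter on low counts and 0.0395 with offsets for exon length. By edgeR adjusted p was 0.137 with the replicate number as a block and 0.0836 with the acinar covariate. Leaving out 1 sample gave 0.045 to 0.259, and 1 of these 6 fits called it. On HFD the R192H mice were higher by 0.89 on the log2 scale (SE 0.39, adjusted p = 0.274), and by 0.50 with the acinar level as a covariate (adjusted p = 0.874). The difference between the genotype effects was 1.40 (SE 0.53, unadjusted p = 0.0199, adjusted p = 0.332). *Cdk6* has 11525 bases of exon, and genes above 8000 bases had a median log2 difference of -0.14 between diets in wildtype mice. Marker sums of other cells also separated these diets. The 8 myeloid markers summed to 91.0 to 140 CPM in wildtype mice on SCD and 69.9 to 78.8 on HFD, the 8 lymphocyte markers to 3.17 to 11.9 and 0.587 to 1.54, with *Cd3e* at 0 in all 3 HFD and 2 SCD samples and *Cd3d* in 3 and 1, and the 9 β cell markers to 44460 to 58810 and 64950 to 93320. Their part in the *Cdk6* difference was not tested.

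*Cdk4* and *Cdkn1b* separated no pair of groups. In the first table *Cdk4* ran from 40.3 to 66.5 CPM and *Cdkn1b* from 39.9 to 60.9, and the compared groups overlapped on both. The 95% intervals of their log2 differences between genotypes on HFD were -0.51 to 0.30 for *Cdk4* and -0.53 to 0.15 for *Cdkn1b*. Between diets in R192H mice they were -0.34 to 0.48 and -0.41 to 0.28.

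Genes that act after the D-type cyclin kinases in the cell cycle rose between SCD and HFD in R192H mice. Of 21 proliferation genes, 20 passed as higher, against 9.75% of all genes, with a median log2 fold change of 2.33 over the list against -0.06 over all tested genes. *Mki67*, whose protein marks cycling cells, was at 5.06, 7.11 and 13.3 CPM on SCD and 57.2, 32.1 and 38.7 on HFD in R192H mice, without overlap (log2 fold change 2.34, SE 0.50, edgeR adjusted p = 0.00721). In wildtype mice it was at 8.96, 7.59 and 12.0 CPM on SCD and 21.4, 12.0 and 3.57 on HFD, which overlapped. *Aurka*, a mitotic kinase (log2 fold change 2.42, SE 0.24), and *Mcm5*, a subunit of the replicative helicase (2.33, SE 0.29), were among those that rose, and *Tk1* was the one not called. The others that rose were *Top2a*, *Ccnb1*, *Ccnb2*, *Cdk1*, *Cdc20*, *Plk1*, *Aurkb*, *Bub1*, *Birc5*, *Mcm2*, *Mcm3*, *Mcm4*, *Mcm6*, *Mcm7*, *Pcna*, *Rrm2* and *Tyms*, with log2 fold changes from 0.61 (*Pcna*) to 3.22 (*Plk1*). With the acinar level as a covariate none of the 21 was called, and the *Mki67* log2 fold change was 0.87 (adjusted p = 0.646). The calls of *Bub1*, *Mcm4*, *Mcm6* and *Pcna* were lost in at least 1 of the fits that left out 1 sample.

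Between genotypes on HFD, 8 of the 21 proliferation genes were higher in R192H mice by the same test, against 1.46% of all genes, and all 21 differences were positive. The 8 were *Aurka*, *Mcm2*, *Mcm5*, *Mcm6*, *Mcm7*, *Pcna*, *Rrm2* and *Tyms*, of which *Mcm5* differed most (1.67, SE 0.28, adjusted p = 0.0109). Leaving out 1 sample gave between 1 and 10 called genes. The count was 5 without wildtype replicate 1, 1 without wildtype replicate 3, 2 without R192H replicate 2 and 1 without R192H replicate 3, and it was 0 with the acinar level as a covariate. None was called between diets in wildtype mice, where the median was 0.37 and 2 had an unadjusted p under 0.05 (15.2% of all genes), or on SCD, where 16 of the 21 differences were negative and none had an unadjusted p under 0.05. DESeq2 called none in either. For the difference between the genotype effects none was called by edgeR, although 19 had an unadjusted p under 0.05 (11.2% of all genes) and DESeq2 called 6 (1.54%). In βiKO mice all 21 differences from controls were positive with a median of 0.48, none was called by edgeR or DESeq2 and 5 had an unadjusted p under 0.05 (12.8%).

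Some other genes of the pathway and of its regulation also passed between the diets in R192H mice. Over 5 lists with 44 genes, 9 passed as higher and 1 as lower, against 9.75% and 5.91% of all genes, and with the acinar level as a covariate none of the 44 was called. Among 12 pocket proteins and E2F factors, *E2f1* (log2 fold change 0.91, SE 0.23), *E2f2* (1.07, SE 0.31) and their partner *Tfdp1* (0.50, SE 0.13) rose, and 9 were not called. Among 8 genes of cyclin E, cyclin A, CDK2 and CDK activation, *Ccne1* (1.73, SE 0.27), *Ccna2* (2.13, SE 0.39) and the phosphatase gene *Cdc25a* (0.74, SE 0.17) rose. Of the 3 other CDK inhibitors, *Cdkn2d*, the fourth INK4 gene, rose by 0.95 (SE 0.20, edgeR adjusted p = 0.00662), from a mean of 3.40 to 6.57 CPM, and *Cdkn1a* and *Cdkn1c* were not called. With the acinar covariate the *Cdkn2d* difference was 0.76 (adjusted p = 0.396). Leaving out 1 sample ended the call of *E2f2* in 5 of 6 fits and those of *E2f1* and *Tfdp1* in 3 each, and *Tfdp1* lay just under the fold threshold by DESeq2 (0.49).

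Of 9 genes for the turnover of the *Cdkn1b* product and D-type cyclins only *Cks1b*, a cofactor of that degradation, rose (1.61, SE 0.25), whereas *Cdkn1b* RNA itself did not pass. Among 12 transcriptional regulators, *Men1*, which encodes menin, a known activator of *Cdkn1b* and *Cdkn2c* transcription in islets, rose by 0.79 (SE 0.20, adjusted p = 0.0161), and the Polycomb gene *Cbx7*, whose product represses *Cdkn2a*, fell by 0.59 on the log2 scale (SE 0.16, adjusted p = 0.0224). The *Cbx7* call was lost in 5 of the 6 fits that left out 1 sample and the *Men1* call in 2. None of these 44 genes was called by edgeR in the other 5 comparisons, whereas without the filter on low counts it called 8 for genotype on HFD, 4 for the difference between genotype effects and 4 for βiKO. With an unadjusted p under 0.05 there were 11 for genotype on HFD (15.9% of all genes), 8 for the difference between genotype effects (11.2%), 7 for diet in wildtype mice (15.2%), 9 for βiKO (12.8%) and 0 for genotype on SCD (3.29%). In the same order DESeq2 called 6 (5.28%), 1 (1.54%), 0 (2.55%), 3 (2.02%) and 0 (0.105%). The 6 were *Cbx7*, *Ccna2*, *Ccne2*, *Cks1b*, *E2f1* and *E2f2*, the 1 was *Ccna2*, and the 3 were *Cdkn1a*, *Gsk3b* and *Kdm6b*. In βiKO mice *Cdkn1a* had the largest difference of the 3 other inhibitors, 1.51 (SE 0.21, edgeR adjusted p = 0.0758), with 5.58 and 3.78 CPM in controls and 12.8, 15.2 and 11.8 in βiKO mice. DESeq2 called it (adjusted p = 4.35e-08), as did edgeR without the filter (2.75e-12).

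The genes with the most similar patterns over the 12 samples differed from member to member. Among 13141 genes with a mean of at least 1 CPM, *Cdkn2c* ran closest to *Tstd3* (Pearson r = 0.97 on log2 CPM), *Qsox1* (0.97) and *Slc17a9* (0.97). *Rb1* ran closest to *Rmnd5a*, *Zbtb10* (0.98 each) and *Rnf217* (0.97), and *Ccnd2* to *Cbl* (0.98), *Gnaq* (0.97) and *Gsk3b* (0.97). *Ccnd1* ran closest to *Eif3d*, *Polr3d* (0.98 each) and *Eif4a3* (0.97), and *Cdk6* to *Prkch* (0.90), *Tgm2* (0.89) and *Smo* (0.88). The 12 points share 1 table, in which diet, age and RNA composition differ together, and these values are descriptions without a test.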

How the data were processed

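Islet RNA of 17 samples was sequenced. Per the labels and the study's methods, the authors made stranded total RNA libraries, aligned paired reads with STAR 2.7.1 (mm10) and estimated gene counts with RSEM 1.3.3. The deposited values are expected counts (estimated counts per gene, not normalised), in a table of 12 samples and a table of 5. The annotation they used is not given in the sources used here.

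Counts were rounded to whole numbers. Each table was fitted on its own with edgeR 4.0.16 in R 4.3.3 (TMM factors, filterByExpr with a minimum count of 10, quasi-likelihood F-test, 1 coefficient per group), with Benjamini-Hochberg adjustment over all genes tested. DESeq2 1.42.0, RLE factors, no filter, an acinar covariate, a replicate block, removal of the 2 largest genes and leaving out 1 sample were tried as alternatives. The acinar covariate was the mean log2 CPM of the acinar markers. Offsets for exon length, transcript length in cyclin shares and the alternatives for pathway genes were chosen after seeing the data. Per sample, CPM used the TMM-scaled library size and length was the union of exons in GENCODE M21, so length-scaled levels depend on that annotation. Correlations used log2 CPM with a prior count of 2. Symbols matched 65.8% and 66.7% of identifiers. The fit was tested on simulated data with known changes.

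The 10 genes and all lists were chosen with earlier results of these data known. Of the 10, *Cdkn2a* was given by its counts and by the fit without the filter. The others were described in every comparison, singly where the unadjusted p was under 0.05 and otherwise by range. This split was chosen after the values were seen. Every gene of the pathway lists called by edgeR with the filter was named. Same-numbered samples were checked for pairing; their deviations did not correlate together. Counts of samples of the same group differed by more than sampling noise, so none was treated as a duplicate. Intervals are 95% intervals.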

Additional observations from a re-analysis of the deposited data

How the results depend on the processing

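The log2 differences of the 10 genes with an unadjusted p under 0.05 kept their direction under every alternative run. The remaining 40, given by range, did not all do so. Of these, 27 changed sign under at least 1 alternative, the largest of them 0.37 on the log2 scale, and none was called. The count of called genes among the 10 changed for genotype on HFD (1 without the filter, 1 by DESeq2), diet in wildtype mice (1 without the filter, 2 by DESeq2, 1 with length offsets, 0 to 1 leaving out 1 sample), diet in R192H mice (3 without the filter, 3 by DESeq2, 0 with the acinar covariate, 1 to 2 leaving out 1 sample) and βiKO (1 without the filter).

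Over all genes, the counts for genotype on SCD, genotype on HFD, the difference between genotype effects, diet in wildtype mice, diet in R192H mice and βiKO were 0, 437, 25, 71, 2996 and 18. Without the filter they were 261, 1279, 708 and 924 for the first 4 and 697 for βiKO. By DESeq2 the same 5 were 23, 918, 314, 540 and 251. With the replicate block, genotype on HFD gave 147, the difference 0, diet in wildtype mice 22 and βiKO 88, and the number called among the 10 genes was the same in each comparison. The numbers did not pair the samples: correlations of same-numbered deviations ran from -0.30 to 0.19. With the acinar covariate the counts were 0 for genotype on HFD, 0 for the difference, 44 for diet in wildtype mice and 21 for diet in R192H mice. With length offsets the difference gave 58. Leaving out 1 sample gave 93 to 498 for genotype on HFD, 0 to 101 for the difference, 5 to 125 and 1706 to 2248 for the 2 diet comparisons, and 2 to 28 for βiKO.

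Of the 21 proliferation genes, the counts for genotype on HFD were 17 without the filter, 3 with the replicate block, 16 by DESeq2, 0 with the acinar covariate and 1 to 10 leaving out 1 sample. For the difference they were 13 without the filter, 6 by DESeq2, 1 with length offsets and 0 to 3 leaving out 1 sample. Diet in R192H mice gave 0 with the acinar covariate, and βiKO 1 without the filter. Of the 44 other pathway genes, the replicate block called *Cdkn1a* for βiKO (adjusted p = 0.0227), and leaving out 1 sample called 0 to 2 for genotype on HFD and 5 to 9 for diet in R192H mice, where all samples together gave 10, and 14 without the filter. The cause of these changes was not tested. With the 2 largest genes left out, CPM levels of the first table were higher, and the number called among the 10 genes was the same in each comparison. Depth limited *Cdkn2a*, at 0 to 16 counts, and *Cdk6*, at 14 to 94 counts.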
